A study of Mus musculus with 8 samples.

Results

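The comparison described here sets CD11b+Gr-1hi cells (written CD11+ in the sample labels, where they carry the name G-MDSC) against CD11b+Gr-1lo cells (M-MDSC) sorted from the spleen. The members were chosen by their group labels and are 4 of the 8 RNA-seq libraries of the study: libraries 5 and 6 from spleen Gr-1hi cells and libraries 7 and 8 from spleen Gr-1lo cells. The other 4 libraries are the same sorted subsets from bone marrow (BM) and serve below only as a reference. All mice were sanroque mice on the C57BL/6 background, homozygous for the san allele of Roquin (Roquin san/san), labelled female and about 20 weeks old. Roquin is an RNA-binding protein that limits mRNAs of T cell help, and mice with this allele develop a lupus-like disease. Every group carries the allele, so that no library of an unaffected mouse enters the comparison. The labels do not say whether animals were pooled, and each group held 2 libraries, which the study's methods call biological replicates.

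Neutrophils and monocytes arise from a shared progenitor, mostly in the marrow and, in mice under chronic inflammation, also in the spleen. A developing neutrophil fills its granules in order of stage. The serine proteases and myeloperoxidase of the primary (azurophil) granules are transcribed in promyelocytes, lactoferrin and the other cargo of the secondary and tertiary granules later, and the receptors and cytokines of the mature cell last. Monocytes leave the marrow through the receptor CCR2, carry a programme for matrix, clotting and clearance of debris, and keep more ribosomes, mitochondria and lysosomes than neutrophils. The question of the comparison is which of these functions part the Gr-1hi from the Gr-1lo cells of the spleen.

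The promoters of 9 genes are shown first, because these genes show the lists described below: 3 primary-granule genes, which were higher in Gr-1lo cells, 3 secondary-granule genes and 3 interferon-stimulated genes, which were higher in Gr-1hi cells. They are the called members of highest level on the granule lists and of largest difference on the interferon list, so they were chosen after the values were seen. Each is 250 bases before the transcription start of the RefSeq annotation (build GRCm38.p6), 5′ to 3′ on the strand of the gene. Capitals mark the core letters of a motif found on either strand. For the primary granules it is GGAAGT, a core bound by PU.1, the factor that opens myeloid genes, at chr11:87793534-87793783 (plus strand) for Mpo, chr10:79879417-79879666 (plus) for Prtn3 and chr10:79886062-79886311 (plus) for Elane.
Mpo: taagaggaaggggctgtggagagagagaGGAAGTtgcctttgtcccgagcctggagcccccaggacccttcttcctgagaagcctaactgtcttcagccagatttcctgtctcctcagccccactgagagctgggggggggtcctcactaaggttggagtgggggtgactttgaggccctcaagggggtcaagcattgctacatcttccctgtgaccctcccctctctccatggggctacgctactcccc
Prtn3: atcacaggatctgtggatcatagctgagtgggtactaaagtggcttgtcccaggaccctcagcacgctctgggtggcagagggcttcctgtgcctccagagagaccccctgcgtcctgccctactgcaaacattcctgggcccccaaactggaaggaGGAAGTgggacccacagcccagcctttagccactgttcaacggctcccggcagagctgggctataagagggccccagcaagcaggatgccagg
Elane: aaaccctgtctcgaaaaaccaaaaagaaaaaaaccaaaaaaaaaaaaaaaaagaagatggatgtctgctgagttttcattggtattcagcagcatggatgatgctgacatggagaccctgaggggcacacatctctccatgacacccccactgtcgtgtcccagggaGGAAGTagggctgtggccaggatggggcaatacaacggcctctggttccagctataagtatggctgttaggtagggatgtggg

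In the secondary-granule promoters the capitals mark TTGCNNAA, a core of the C/EBP factors that act late in granulocytes. They lie at chr9:110419558-110419807 (plus strand) for Ngp, chr9:111019042-111019291 (plus) for Ltf and chr2:32387740-32387989 (minus) for Lcn2.
Ngp: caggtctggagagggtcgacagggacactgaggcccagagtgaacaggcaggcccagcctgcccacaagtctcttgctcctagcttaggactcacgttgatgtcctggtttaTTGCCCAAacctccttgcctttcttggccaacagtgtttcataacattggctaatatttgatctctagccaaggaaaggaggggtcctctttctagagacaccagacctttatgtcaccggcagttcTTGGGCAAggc
Ltf: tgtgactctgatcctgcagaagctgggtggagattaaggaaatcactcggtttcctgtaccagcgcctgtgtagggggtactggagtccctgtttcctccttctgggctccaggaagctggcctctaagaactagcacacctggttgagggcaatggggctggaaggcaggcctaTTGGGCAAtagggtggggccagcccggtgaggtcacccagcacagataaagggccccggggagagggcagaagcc
Lcn2: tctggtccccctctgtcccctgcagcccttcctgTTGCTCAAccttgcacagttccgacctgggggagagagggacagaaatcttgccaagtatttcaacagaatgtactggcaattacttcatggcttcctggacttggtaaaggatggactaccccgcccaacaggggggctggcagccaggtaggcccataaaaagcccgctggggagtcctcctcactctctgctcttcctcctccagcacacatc

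In the interferon-stimulated promoters they mark GAAA, any 2 bases and GAAA again, the core of the interferon-stimulated response element (ISRE). They lie at chr12:26456453-26456702 (minus strand) for Rsad2, chr19:34583279-34583528 (plus) for Ifit3 and chr19:34607707-34607956 (plus) for Ifit3b, and the last pair repeat much of the same sequence.
Rsad2: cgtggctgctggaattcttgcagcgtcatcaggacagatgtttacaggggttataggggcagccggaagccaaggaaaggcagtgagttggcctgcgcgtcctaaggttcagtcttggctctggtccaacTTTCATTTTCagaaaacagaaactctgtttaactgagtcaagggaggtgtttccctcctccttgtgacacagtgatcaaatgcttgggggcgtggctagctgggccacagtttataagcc
Ifit3: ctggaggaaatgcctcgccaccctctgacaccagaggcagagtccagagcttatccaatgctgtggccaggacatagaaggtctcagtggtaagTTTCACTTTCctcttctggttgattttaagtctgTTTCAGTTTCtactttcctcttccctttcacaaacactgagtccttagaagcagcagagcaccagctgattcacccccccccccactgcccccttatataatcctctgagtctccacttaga
Ifit3b: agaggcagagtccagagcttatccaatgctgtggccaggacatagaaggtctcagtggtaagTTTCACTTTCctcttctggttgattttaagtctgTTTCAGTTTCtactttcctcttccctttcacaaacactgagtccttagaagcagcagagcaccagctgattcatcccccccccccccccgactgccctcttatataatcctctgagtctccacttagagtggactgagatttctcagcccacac

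Among all 27025 promoters in the RefSeq table, searched over the 250 bases before the start, 20.0% held GGAAGT, 9.53% held TTGCNNAA and 3.06% held the ISRE core. GGAAGT was in 5 of 5 primary-granule promoters with an entry and in 6 of 14 secondary-granule promoters. TTGCNNAA was in 0 of 5 and 6 of 14 of the same lists, and the ISRE core in 8 of 16 interferon-stimulated promoters. The E2F core TTTNNCGC, which 4.41% of all promoters held, was in 5 of 18 DNA replication promoters. A match is a description of letters and not a bound site, and the ISRE letters contain no copy of another motif searched.

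The spleen libraries held 36809570 to 68316154 counts, and 17650 of the 34018 genes with a count passed the filter on low counts and were tested. Levels below are CPM, read counts scaled to a common library size with factors from the trimmed mean of M values (TMM), in the order library 5, 6 for Gr-1hi and 7, 8 for Gr-1lo. Differences are log2 fold changes, Gr-1hi minus Gr-1lo, with their standard error (SE) and the p of edgeR's quasi-likelihood test after Benjamini-Hochberg adjustment. Replicates lay close together: of the genes of at least 50 CPM in either library, 62 of 3884 (1.60%) differed 2-fold or more between libraries 5 and 6, and 16 of 3721 (0.430%) between libraries 7 and 8. In sorted populations, fewer cells of a type and less RNA per cell cannot be told apart.

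In all libraries but library 5, the X-linked transcript Xist or the Y-linked transcript Ddx3y went against the labelled sex. Library 5 held 12032 Xist counts and 0 Ddx3y counts, and library 7 held 9898 Xist and 1595 Ddx3y counts. The other 6 libraries held at most 5 Xist counts, with Ddx3y at 52.5 to 82.6 CPM. The spleen groups therefore each joined libraries that differ in these transcripts, and results are also given for libraries 6 and 8 alone and for libraries 5 and 7 alone. Libraries 6 and 8 are alike in these transcripts, but libraries 5 and 7 still differ in Ddx3y. In these fits the spread comes from the marrow pairs and a lone library is assumed to vary like them.

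Of the 4 transcripts of the sorting antigens 2, Ly6g and Itgam, were higher in Gr-1hi cells, and Ly6c1 and Ly6c2 were not called. Ly6g, which encodes an antigen of the Gr-1 antibody, was at 330.0 and 495 CPM in Gr-1hi and 5.74 and 8.23 CPM in Gr-1lo cells. Itgam, which encodes CD11b, was at 2739 and 3511 CPM against 983 and 952 CPM. Ly6c2, the other antigen of the Gr-1 antibody together with Ly6c1, was at 585 and 830.4 CPM against 1196 and 1440.4 CPM (-0.90, below 2-fold). These genes belong to the gate and are no finding, and reads of the near-identical Ly6c1 and Ly6c2 may be shared. Csf1r, the receptor for macrophage colony-stimulating factor, was at 375 and 264 CPM in Gr-1hi and at 663 and 754 CPM in Gr-1lo cells, a difference of -1.15 (SE 0.19, adjusted p = 0.00059). It was present in both subsets, and without library 6 the difference fell below 2-fold, at -0.94. All 10 granulocyte stage markers were higher in Gr-1hi cells and 11 of 12 monocyte stage markers (fewer with 1 library a group) were higher in Gr-1lo cells. The direction of these differences went with the labels of both subsets. In level, however, the granulocyte markers summed to more than the monocyte markers in spleen Gr-1lo cells too, at 12019 and 10805 against 8506 and 8535 CPM. In marrow Gr-1lo cells these sums were 4851 and 4966 against 11709 and 10914 CPM. The source of the granulocyte transcripts in spleen Gr-1lo cells was not tested.

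Markers of other spleen cells were also present and moved with the subsets. All 16 B cell markers were higher in Gr-1hi cells, among them Cd22 (103 and 74.4 against 13.4 and 16.8 CPM) and Cd79a (71.3 and 50.2 against 8.80 and 11.9 CPM). Their summed level was 1789 and 1108 CPM against 397 and 636 CPM, most of it Ighm, the call of which was lost without library 5 (0.56) or 7 (0.67) and fell just under 2-fold without library 9 or 10. Of 16 T cell markers, 14 were higher in Gr-1hi cells, at a sum of 180.3 and 109 against 37.4 and 56.2 CPM, and none was higher in Gr-1lo cells, with 6 called in libraries 6 and 8 alone. Plasma cell markers summed to 1493 and 1473 against 1307 and 1525 CPM, with 3 of 12 higher in Gr-1hi cells. Of these markers 5 reached 50 CPM in both libraries of a group, while the receptor Tnfrsf17 was at 0 to 0.185 CPM. The other lists were smaller or rested on 1 gene. Red pulp macrophage markers (1165 and 985 against 322 and 361 CPM) were mostly the iron exporter Slc40a1, and dendritic cell markers (877 and 1135 against 238 and 230 CPM) mostly Cd24a, which neutrophils also express. Erythroid markers summed to 220.2 and 737 against 168 and 234 CPM, eosinophil and basophil markers to 62.2 and 50.1 against 21.4 and 19.0, NK cell markers to 23.2 and 17.7 against 19.4 and 37.3, and platelet markers to 7.84 and 8.39 against 1.82 and 2.44. Counts on mitochondrial genes made up 0.834% and 0.696% of the Gr-1hi and 2.42% and 2.73% of the Gr-1lo libraries. The part of these cells and shares in the results below was not tested.

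**Figure D1:**
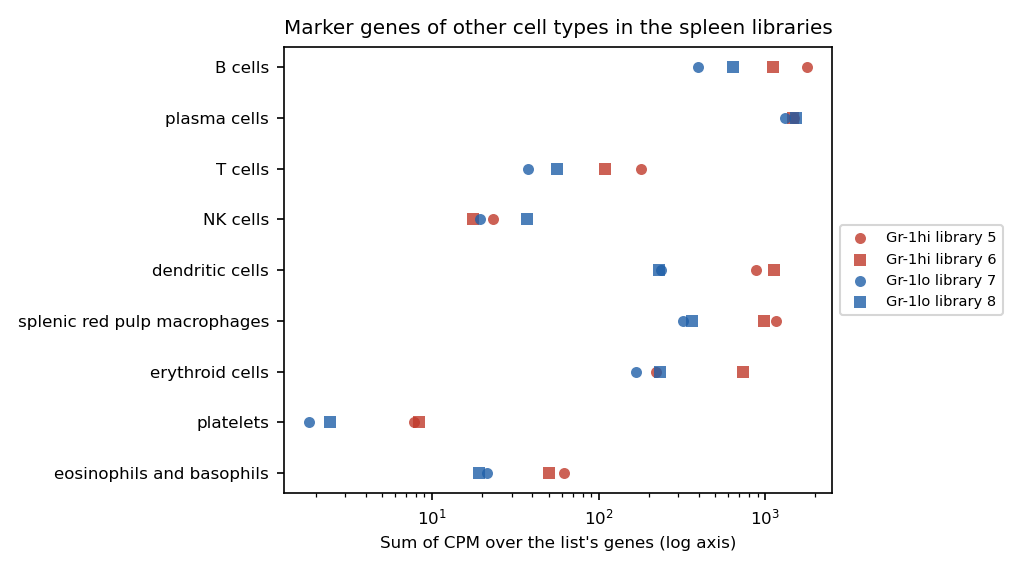
Summed CPM (log axis) of the marker genes of 9 other cell types in each spleen library, with Gr-1hi libraries in red, Gr-1lo libraries in blue, circles for libraries 5 and 7 and squares for libraries 6 and 8. B cell and T cell markers are higher in both Gr-1hi libraries, plasma cell markers lie together at 1307 to 1525 CPM, and platelet markers stay below 8.40 CPM.

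With a limit of 0.05 on the adjusted p and of 2 on the fold, 49.6% of all genes tested were called, 22.3% higher in Gr-1hi and 27.4% higher in Gr-1lo cells (3928 and 4833 genes, but 4409 and 4385 with scaling by relative log expression, so the balance is not read). This is the rule meant below by called, higher or lower. The 2 libraries of one subset lay above both of the other at 86.2% of genes, so that a lack of overlap stated for genes below is common. At the stricter rule of an adjusted p below 0.01 and a fold above 8, 7.37% of genes were called, of which 783 (4.44% of all) were higher in Gr-1hi and 518 (2.93%) in Gr-1lo cells. Among the 4376 genes of at least 50 CPM in both libraries of a group, 278 (6.35%) met the strict rule, of which 184 (4.20%) were higher in Gr-1hi and 94 (2.15%) in Gr-1lo cells. This floor is set on the higher group, so these counts are a description. Just inside it lay Tmem40, at 50.6 CPM in the lower of its libraries, and just outside it Cyp27a1, at 49.1 CPM. All 278 genes kept their direction under each of 16 other settings, and 209 (libraries 5 and 7 alone) to 275 (spleen libraries fitted alone) of them again met the strict rule. The median difference over all genes was -0.09, and it moved to 0.04 under another scaling (relative log expression), so that list medians near 0 are not read.

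**Figure D2:**
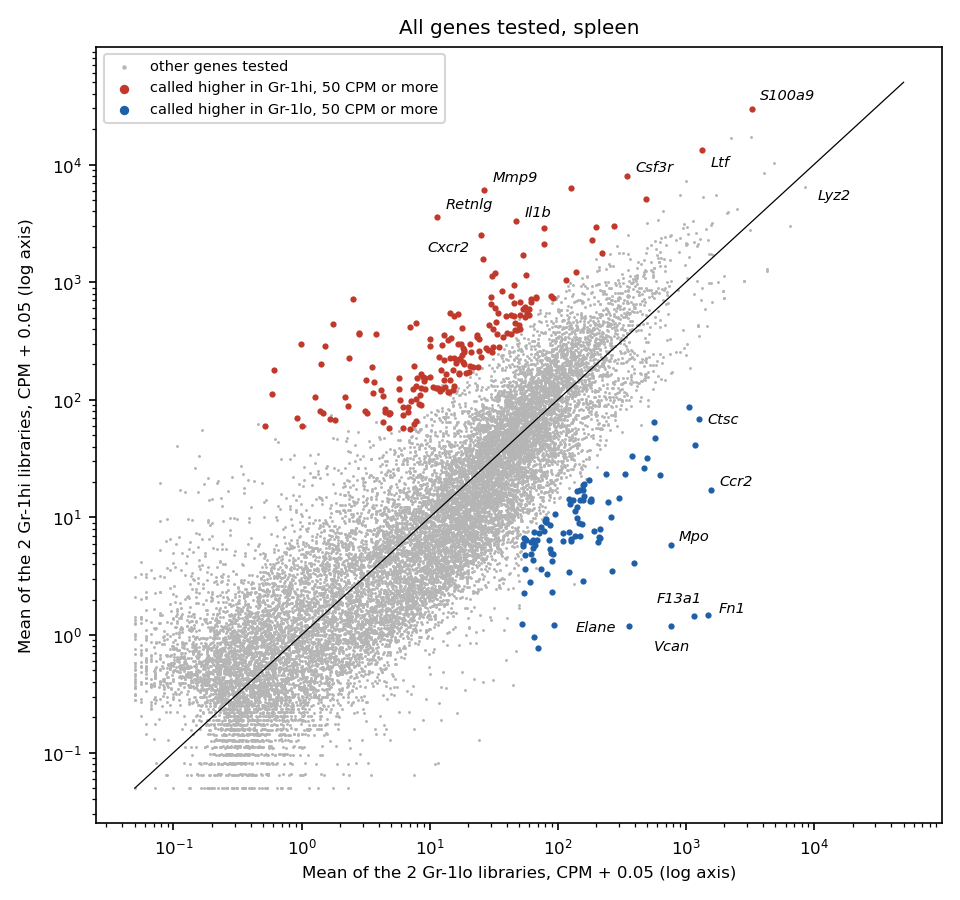
Mean CPM of the Gr-1lo libraries (x axis, log) against that of the Gr-1hi libraries (y axis, log) for the 17650 genes tested, with 0.05 CPM added to each so that zeros can be drawn. Red and blue points are the 184 and 94 genes of at least 50 CPM called by the strict rule, grey points all other genes, and the line marks equal levels. Fn1, F13a1 and Vcan lie farthest below the line, Retnlg and Mmp9 far above it, and Lyz2 close to it.

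Among genes of at least 50 CPM, the largest differences toward Gr-1hi cells were those of Retnlg, Stfa2l1, Steap4 and Cstdc4. Retnlg, which encodes a resistin-like protein of neutrophils, was at 3106 and 4045 CPM in Gr-1hi and 7.91 and 14.9 CPM in Gr-1lo cells, a difference of 8.28 (SE 0.49, adjusted p = 6.4e-06). Mmp9, the gelatinase of tertiary granules, was at 5360.4 and 6767 against 24.7 and 28.3 CPM (7.84, SE 0.42, adjusted p = 2.5e-06). Steap4, a metalloreductase, was at 1035 and 394 against 2.32 and 2.60 CPM (8.17, SE 0.55), so that its Gr-1hi libraries differed by more than those of the other leading genes. Asprv1, an aspartic protease also found in neutrophils, was at 466 and 414 against 1.35 and 2.10 CPM (7.96, SE 0.61). The stefin family members Stfa2l1 (8.21) and Cstdc4 (8.13), cysteine protease inhibitors whose near copies may share reads, had 346 and 254 and 198 and 158 CPM in Gr-1hi cells. Amer2 (7.61), Ankrd33b (7.55), Sycp2 (7.18), Phospho1 (7.05), Dhrs9 (7.03) and Gm39321 (6.97) complete the 12 genes of largest difference. In each of these genes both Gr-1hi libraries lay above both Gr-1lo libraries, which was a condition of their choice and is no finding.

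Toward Gr-1lo cells the leading genes belonged to matrix, clotting and the primary granules. Fn1, which encodes the matrix protein fibronectin, was at 1.33 and 1.53 CPM in Gr-1hi and at 1753 and 1219.6 CPM in Gr-1lo cells, a difference of -10.02 (SE 1.70, adjusted p = 0.0034). F13a1, the A subunit of clotting factor XIII, was at 0.784 and 2.04 against 1236 and 1087 CPM (-9.69, SE 1.25, adjusted p = 0.001). Vcan, which encodes the proteoglycan versican, was at 1.08 and 1.18 against 827 and 704 CPM (-9.40, SE 1.27, adjusted p = 0.0013). The spleen replicates of these genes were close, and the errors come with the marrow Gr-1hi libraries, in which Fn1 was at 1.12 and 31.2 CPM. With libraries 6 and 8 alone or 5 and 7 alone, Fn1 (-9.66 and -10.38), F13a1 (-9.08 and -10.63), Vcan (-9.24 and -9.59) and Ccr2 (-6.80 and -6.26) kept their size and lost the call, at adjusted p of 0.06 to 0.13. Ccr2, the receptor by which monocytes leave the marrow, was at 19.2 and 15.2 against 1451 and 1666 CPM (-6.50, SE 0.86, adjusted p = 0.00081). Itga1 (-6.16), a collagen-binding integrin chain, Fam129b (-6.31) and Arhgef37 (-6.26) followed, beside 4 genes of the primary granules.

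**Figure D3:**
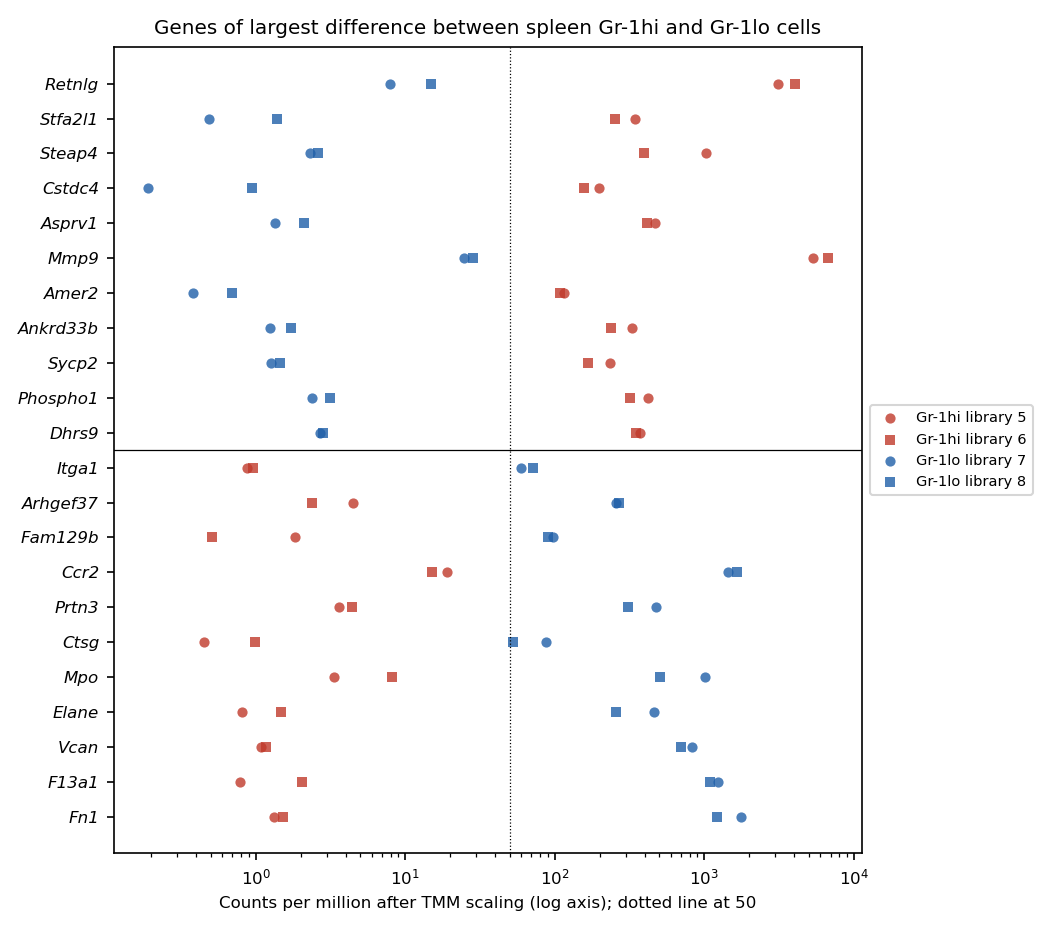
CPM (log axis) in each spleen library of the 11 genes of largest difference in each direction, with Gr-1hi libraries in red and Gr-1lo libraries in blue, 1 point a library, and a dotted line at 50 CPM. Red and blue points do not overlap in any of these genes, which were chosen for that among other criteria, and the points of 1 subset lie close together beside the gap between the subsets.

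The granule programmes split by stage. All 6 primary-granule genes tested were higher in Gr-1lo cells (median -6.61), and 14 of 16 secondary- and tertiary-granule genes were higher in Gr-1hi cells, with none higher in Gr-1lo cells (median 2.98), or 1 without library 6. Elane, neutrophil elastase, was at 0.814 and 1.47 CPM in Gr-1hi and 465 and 258 CPM in Gr-1lo cells (-8.31, SE 0.42, adjusted p = 2.5e-06). Mpo, myeloperoxidase, was at 3.35 and 8.13 against 1012 and 509 CPM (-7.05, SE 0.57, adjusted p = 4.8e-05). Prtn3, proteinase 3, was at 3.59 and 4.43 against 477 and 307 CPM (-6.61, SE 0.29, adjusted p = 8.9e-07). Ctsg, cathepsin G, was at 0.452 and 0.989 against 87.8 and 52.7 CPM (-6.61, SE 0.38). In each of these genes library 7 was the higher of the Gr-1lo libraries, and no Gr-1hi library came near either. Ms4a3, a membrane protein of granulocyte and monocyte progenitors, was at 4.25 and 5.68 against 105 and 72.3 CPM (-4.16, SE 0.28). Their levels per kilobase of exon in Gr-1lo cells ran from 368 CPM for Elane to 47.1 CPM for Ms4a3 among these 5 genes.

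Secondary-granule transcripts were far more abundant, and they were present in Gr-1lo cells too. Ngp, neutrophilic granule protein, was at 11941 and 22244 CPM in Gr-1hi and 3229 and 3178 CPM in Gr-1lo cells (2.42, SE 0.26, adjusted p = 5.5e-05). Ltf, lactoferrin, was at 9602 and 16937 against 1314 and 1372 CPM (3.30, SE 0.26, adjusted p = 9.4e-06). Lcn2, the siderophore-binding lipocalin, was at 5691 and 8702 against 1062 and 935 CPM (2.85, SE 0.20). Library 6 was the higher of the Gr-1hi libraries in all 3. The mean Gr-1lo level was 18.7% of the Gr-1hi level for Ngp, 10.1% for Ltf and 13.9% for Lcn2, against 0.437% for Mmp9 and 0.319% for Retnlg. Mmp8, a collagenase of the same granules, was at 2223 and 3807 against 308 and 237 CPM (3.47, SE 0.27). Chil3, a chitinase-like protein, was the most abundant list member not called, at 1508 and 4048 against 3602 and 2676 CPM (-0.18, 95% interval -1.20 to 0.85). Its libraries decided that value: it was called at -1.08 without library 6 (adjusted p = 0.0022) and -1.27 with libraries 5 and 7 alone, and was 0.34 without library 5 and 0.57 with libraries 6 and 8 alone. The calprotectin subunits S100a8 (14700.0 and 18948 against 2450.2 and 2020.2 CPM; 2.91, SE 0.17) and S100a9 (26707 and 32892 against 3614 and 2912 CPM; 3.19, SE 0.16) were the most abundant of the S100 and stefin genes, 8 of 11 of which were higher in Gr-1hi cells (median 2.91). After quantile normalization of TPM, which gives the top ranks of all libraries like values, the S100a9 difference was 0.60 and was not called. S100a6 (2.31) and S100a11 (2.42) went the same way, while S100a10, which partners annexin A2 (6.96 and 5.58 against 126 and 129.6 CPM, -4.35), and S100a4, a motility factor (7.87 and 5.52 against 219 and 209 CPM, -5.00), were higher in Gr-1lo cells. S100a4 overlaps another annotated gene and its call was lost with 1 library a group (-5.26 and -4.82). These 2 were named after their values were seen, as the list members that went the other way.

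Receptors that guide the cells were divided between the subsets. Of 22 chemoattractant receptors 16 were higher in Gr-1hi cells and 5 in Gr-1lo cells (median 2.06). Cxcr2, the neutrophil receptor for CXC chemokines, was at 2760.3 and 2269 CPM in Gr-1hi and 26.9 and 23.4 CPM in Gr-1lo cells (6.64, SE 0.19, adjusted p = 1.7e-07). The complement receptor C5ar1 (592 and 616 against 33.5 and 31.1 CPM, 4.23), the formyl peptide receptor Fpr2 (685 and 802 against 85.1 and 111 CPM, 2.92) and the chemokine receptor Ccr1 (834 and 852 against 116 and 117 CPM, 2.85) followed, and Ccr2 led the other way. Replicates of Ccr1 lay closest, and the subsets did not overlap at any of these receptors. Among integrins and selectins, 7 of 15 were higher in Gr-1hi and 2 in Gr-1lo cells (1 without library 6). The selectin ligand Selplg was at 2024 and 1534 against 327 and 322 CPM (2.46, SE 0.14). Cd44, whose product binds hyaluronan, was at 1310.1 and 1321 against 414 and 417 CPM (1.66, SE 0.08).

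Growth factor receptors and fate transcription factors followed lineage in part. Csf3r, the G-CSF receptor, was at 9073 and 6879 CPM in Gr-1hi and 347 and 351 CPM in Gr-1lo cells (4.51, SE 0.19, adjusted p = 5.2e-07). In Gr-1hi cells Csf3r stood at 2210 CPM per kilobase and Csf1r at 55.3, and in Gr-1lo cells Csf3r at 96.8 and Csf1r at 123. Il17ra, the receptor for the granulopoietic cytokine IL-17, was at 1001 and 961 against 389 and 363 CPM (1.38, SE 0.10). Of 22 growth factor and cytokine receptors, 8 were higher in Gr-1hi and 2 in Gr-1lo cells (1 without library 6 or 8), and Il6ra (366 and 272 against 335 and 318 CPM, -0.03) and Ifngr1 (316 and 183 against 308 and 314 CPM, -0.32) were among the 12 not called. Of 20 transcription factors, 9 were higher in Gr-1lo and 5 in Gr-1hi cells (median -0.84). Irf5, an activator of inflammatory cytokines, was at 67.1 and 55.8 against 242 and 253 CPM (-2.01, SE 0.11) and Zeb2, a repressor in the monocyte lineage, at 124 and 76.0 against 306 and 333 CPM (-1.67, SE 0.21). Klf2, which keeps leukocytes quiescent, was at 434 and 573 against 128 and 115 CPM (2.05, SE 0.18), and Spi1, which encodes PU.1, at 845 and 760.5 against 334 and 298 CPM (1.35, SE 0.10). Cebpb, the factor of emergency granulopoiesis, was at 263 and 261 against 149 and 100.2 CPM (1.08, SE 0.25, adjusted p = 0.0058). That call was lost without library 5 (1.05), 6 (1.06) or 8 (0.80). Stat3, the signal transducer of G-CSF and IL-6, was at 665 and 586 against 304 and 307 CPM (1.03, SE 0.09), and it fell below 2-fold without library 5 (0.92).

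Among receptors of pathogen and antibody recognition, more members were higher in Gr-1hi than in Gr-1lo cells, though on the Toll-like receptor list most were not higher in Gr-1hi cells. Higher in Gr-1hi cells were 7 of 12 Fc and activating receptors (3 lower), 8 of 15 C-type lectins (4 lower), 6 of 16 Toll-like receptors and adaptors (2 lower, 1 without library 5; 8 not called) and 11 of 18 inhibitory and paired receptors (1 lower). By an exact test on quantile-normalized TPM, 4 of the lectins and 3 of the Toll-like receptors were higher in Gr-1hi cells. Clec4d, a partner of Mincle that senses mycobacterial glycolipids, was at 491 and 399.5 CPM in Gr-1hi and 6.86 and 8.61 CPM in Gr-1lo cells (5.84, SE 0.26). Clec7a, the receptor for fungal beta-glucan (Dectin-1), was at 1074 and 833 against 171 and 227 CPM (2.26, SE 0.16). Trem1, an amplifier of inflammatory signals, was at 319.7 and 395 against 24.4 and 22.1 CPM (3.94, SE 0.33). Both Gr-1hi libraries lay above both Gr-1lo libraries at all 3. Lilr4b was the most abundant paired receptor of the strict rule, at 4931 and 5222 against 459 and 514 CPM (3.38, SE 0.12), and the close relative Lilrb4a, which may share its reads, was at 5475 and 5458 against 832 and 967 CPM (2.60, SE 0.11). Fcgr4, a receptor for IgG2 antibodies, was at 408 and 345 against 88.7 and 108 CPM (1.93, SE 0.14). The inhibitory Fc receptor Fcgr2b (105 and 117 against 269.5 and 288 CPM, -1.33, SE 0.12) and the high-affinity receptor Fcgr1 (10.5 and 6.89 against 141 and 167 CPM, -4.14, SE 0.44) went the other way, and were named after their values were seen. Tlr13, a sensor of bacterial ribosomal RNA, was at 461 and 469 against 199 and 211 CPM (1.18, SE 0.08), and Tlr6, which pairs with TLR2, at 128 and 96.1 against 33.3 and 38.1 CPM (1.65, SE 0.15).

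Effector genes were called toward Gr-1hi cells more often than toward Gr-1lo cells, and many were not called. Of the NADPH oxidase and extracellular trap genes, 5 of 7 were higher in Gr-1hi and none in Gr-1lo cells (median 1.46). Padi4, which citrullinates histones when traps form, was at 665 and 859 against 41.7 and 44.5 CPM (4.14, SE 0.15, adjusted p = 3.4e-07). Ncf1, a cytosolic oxidase subunit, was at 1389 and 2184 against 505 and 474 CPM (1.87, SE 0.19), while the membrane subunit Cybb was not called (1300.2 and 2151 against 1493 and 1646 CPM; 0.14, 95% interval -0.34 to 0.61). Of 13 lipid mediator genes tested 6 were higher in Gr-1hi and 2 in Gr-1lo cells (median 0.74), and 5 were not called. Alox5, which starts leukotriene synthesis, was at 459.6 and 564 against 42.7 and 35.8 CPM (3.71, SE 0.14). Ptgs2, the inducible cyclooxygenase, was at 28.2 and 239.7 against 8.86 and 15.9 CPM (3.42, SE 1.02, adjusted p = 0.028), where library 6 held most of the signal (1.15 without it). Its call was lost without library 7 (3.05), 8 (3.90), 11 (3.40) or 12 (3.40), or without the filter on low counts. Of 12 genes of the IL-1 family and the inflammasome 6 were higher in Gr-1hi and 2, the inflammasome genes Nlrc4 (-2.64) and Pycard (-1.79), in Gr-1lo cells (median 1.18), and 4 were not called. These 2 were named after their values were seen. Il1b, an inflammatory cytokine, was at 3135 and 3509.7 CPM in Gr-1hi and 26.4 and 67.9 CPM in Gr-1lo cells (6.13, SE 0.62, adjusted p = 0.00017). Its antagonist Il1rn was at 284 and 270.1 against 13.2 and 23.4 CPM (3.92, SE 0.30), and the sensor Nlrp3 at 182 and 183 against 47.7 and 53.0 CPM (1.86, SE 0.19). Il18 was not called at 8.38 and 6.22 against 11.5 and 13.9 CPM (-0.80, SE 0.18).

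Cytokine calls lay mostly toward Gr-1hi cells, and chemokine calls were as many in each direction. Of 11 cytokines tested, 6 were higher in Gr-1hi and 1 in Gr-1lo cells. Csf1, the ligand of CSF1R, was at 161 and 144 CPM in Gr-1hi and 8.17 and 7.75 CPM in Gr-1lo cells (4.26, SE 0.19, adjusted p = 6.2e-07), so that ligand and receptor transcripts were higher in opposite subsets. Osm, oncostatin M, was at 226 and 569.7 against 28.3 and 34.5 CPM (3.66, SE 0.46), and Tnfsf14 (LIGHT) at 197 and 133 against 24.7 and 21.2 CPM (2.85, SE 0.21). Tnf was at 41.2 and 78.5 against 20.7 and 25.9 CPM (1.36, SE 0.27, adjusted p = 0.0021), and below 2-fold without library 6 (0.80). Il6 was not tested, at 0.0422 to 0.191 CPM in the 4 libraries. Of 14 chemokines, 4 were higher in each subset (2 in Gr-1lo cells without library 6). This is near the share over all genes tested, 22.3% higher in Gr-1hi and 27.4% in Gr-1lo cells, and is not read. Ccl6, a CC chemokine of myeloid cells, was at 643 and 692 against 238 and 255 CPM (1.44, SE 0.13), and Ccl9, of the same family, at 7.96 and 7.81 against 211 and 218 CPM (-4.77, SE 0.17, adjusted p = 3.4e-07). Ccl2, the ligand of CCR2, was at 2.44 and 4.21 against 14.2 and 16.1 CPM (-2.19, SE 0.25). Cxcl2, a ligand of CXCR2, was at 133 and 372 against 24.5 and 17.2 CPM (3.60, SE 0.72, adjusted p = 0.0052), and its call was lost without library 8 (3.35).

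Among genes by which such cells restrain or help lymphocytes, more were called toward Gr-1hi than toward Gr-1lo cells. Of 13 T cell costimulation and inhibition genes tested, 7 were higher in Gr-1hi cells (4 by the exact test on TPM) and 3 in Gr-1lo cells (median 1.04). Of 9 arginine and suppressive enzyme genes tested, 4 were higher in Gr-1hi and 1 in Gr-1lo cells. Arg2, the mitochondrial arginase, was at 209.9 and 167 CPM in Gr-1hi and 2.62 and 4.35 CPM in Gr-1lo cells (5.73, SE 0.29, adjusted p = 1.6e-06). Arg1, the cytosolic arginase of suppressive macrophages, was not tested, at 0 to 0.0603 CPM. Nos2, inducible nitric oxide synthase, was at 51.6 and 14.6 against 3.14 and 2.76 CPM (3.49, SE 0.68, adjusted p = 0.0034), and the difference was 2.29 without library 5. Entpd1 (CD39), which clears extracellular ATP, was at 480.4 and 377 against 25.7 and 31.9 CPM (3.89, SE 0.16), and Ass1, of arginine synthesis, at 6.48 and 5.07 against 59.5 and 72.9 CPM (-3.52, SE 0.24). Cd274, which encodes PD-L1, was at 649 and 441 against 40.6 and 74.8 CPM (3.24, SE 0.60, adjusted p = 0.0035), and it lost the call with libraries 6 and 8 alone (2.54) and 5 and 7 alone (3.98). Icosl, the ligand of the T cell costimulator ICOS, was at 103 and 112 against 39.6 and 42.9 CPM (1.38, SE 0.09, adjusted p = 3.9e-06).

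The TNF family ligands of plasma cell survival went opposite ways. Tnfsf13b (BAFF) was at 37.4 and 63.4 CPM in Gr-1hi and 11.3 and 10.5 CPM in Gr-1lo cells (2.21, SE 0.22, adjusted p = 3.9e-05). Tnfsf13 (APRIL) was at 2.62 and 2.33 against 49.2 and 40.8 CPM (-4.18, SE 0.19, adjusted p = 7e-07). The 2 subsets did not overlap at either ligand. Of 11 MHC class II presentation genes, 4 were higher in Gr-1lo and 3 in Gr-1hi cells (median -1.16). Over all genes tested the shares were 27.4% and 22.3%, so these counts are not read as a trait of the family. Fewer of the 11 were higher in Gr-1lo cells without library 6 or library 8. Cd74, the invariant chain, was at 687 and 491 against 1070.4 and 1768 CPM (-1.27, SE 0.44, adjusted p = 0.037), and the call was lost without library 5 (-1.56), 6 (-1.07) or 8 (-0.88). The peptide loader subunits H2-DMa (30.4 and 26.0 against 126 and 165 CPM, -2.37) and H2-DMb1 (36.0 and 26.3 against 136 and 197 CPM, -2.42) were higher in Gr-1lo cells, and not called with libraries 5 and 7 alone (-2.07 and -1.93). H2-Ob, a subunit of the loader's inhibitor found mostly in B cells, was higher in Gr-1hi cells at 56.4 and 42.8 against 8.00 and 11.0 CPM (2.38, SE 0.28), as were the B cell markers above. H2-Aa (283 and 207 against 400.2 and 699 CPM, -1.17) and H2-Ab1 (260.2 and 181 against 376 and 609 CPM, -1.16) were not called, and library 8 was well above library 7 at each.

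Matrix and lysosomal genes were called more often toward Gr-1lo cells. Clearance receptors and complement genes had more 2-fold calls toward Gr-1hi cells, but the summed level of each list was higher in both Gr-1lo libraries. No direction is therefore read for these lists. Of 17 matrix and coagulation genes 9 were higher in Gr-1lo and 3 in Gr-1hi cells (median -1.61), led by Fn1, F13a1 and Vcan above. The urokinase receptor Plaur went the other way at 358 and 548 against 107 and 128 CPM (1.95, SE 0.20). Among lysosomal genes, 12 of 23 were higher in Gr-1lo and 1 in Gr-1hi cells (median -1.01), or 2 without library 6 or 8. Ctsc, the cathepsin that activates the granule serine proteases, was at 83.8 and 52.3 CPM in Gr-1hi and 1128 and 1416 CPM in Gr-1lo cells (-4.22, SE 0.36, adjusted p = 4e-05). Psap, the precursor of the saposins, was at 1223 and 1278 against 4116 and 4496 CPM (-1.78, SE 0.10), and Ctsd, cathepsin D, was the 1 member higher in Gr-1hi cells, at 1151 and 998 against 329 and 321 CPM (1.73, SE 0.11). Of 16 scavenger and efferocytosis receptors 8 were higher in Gr-1hi and 5 in Gr-1lo cells (median 0.79). By the exact test on TPM 2 were higher in Gr-1hi and 5 in Gr-1lo cells, and by the strict rule 1 and 4. Among the 8, Abcg1, a cholesterol exporter, was at 132 and 118 against 44.9 and 58.5 CPM (1.27, SE 0.15; 0.99 and not called with libraries 6 and 8 alone). Toward Gr-1lo cells, Msr1, scavenger receptor A, was at 2.68 and 1.82 against 80.5 and 101 CPM (-5.33, SE 0.34), Scarb1, the lipoprotein receptor, at 24.4 and 17.4 against 174 and 176 CPM (-3.06, SE 0.24), and Pros1, the bridging protein S, at 2.17 and 2.26 against 51.6 and 57.5 CPM (-4.62, SE 0.27). Lrp1, a large endocytic receptor and 1 of the 8 most abundant strict calls, was at 48.7 and 34.2 against 1195 and 1142 CPM (-4.82, SE 0.37). Of 12 complement genes tested, 5 were higher in Gr-1hi and 2 in Gr-1lo cells, and by the strict rule 2 in each. Cd55, a decay-accelerating factor, was at 64.4 and 88.5 against 2.76 and 3.64 CPM (4.56, SE 0.21), and the abundant C3 was not called at 828 and 1206 against 1211 and 1217 CPM (-0.26, 95% interval -0.61 to 0.10).

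Type I interferon-stimulated genes were higher in Gr-1hi cells, 16 of 20, against 2 lower, or 1 without library 8 (median 1.87). Oasl2, a member of the oligoadenylate synthetase family, was at 2631 and 1959 CPM in Gr-1hi and 169 and 204 CPM in Gr-1lo cells (3.62, SE 0.20, adjusted p = 1.9e-06). Oas3, which makes the activator of RNase L, was at 1150.4 and 1033 against 146 and 164 CPM (2.81, SE 0.15). Rsad2 (viperin), whose promoter is printed above, was at 296 and 363 against 8.21 and 11.9 CPM (5.03, SE 0.24), Ifit3 at 306 and 378 against 17.1 and 29.8 CPM (3.86, SE 0.41) and Ifit3b, whose reads may be shared with it, at 171 and 215 against 5.34 and 9.68 CPM (4.67, SE 0.39). No library of one subset reached the other at these 5 genes. Mx1 was among the 2 that were lower, at 4.37 and 4.18 against 61.4 and 67.6 CPM (-3.92, SE 0.24), and was named after its values were seen. The GTPases induced by interferon-gamma were less uniform between replicates: 6 of 15 were higher in Gr-1hi cells, none in Gr-1lo cells (median 1.39). Toward Gr-1hi cells 10 were called when the 4 spleen libraries were fitted alone, 2 without library 5 or without the filter on low counts, 3 without library 6 or 7, 4 without library 8 and 1 with 1 library a group. In the fit of the spleen libraries alone, in the exact test on TPM and without library 9 or 10, 1 was higher in Gr-1lo cells. Gbp2 was at 2547 and 1621 against 369 and 697 CPM (1.97, SE 0.71, adjusted p = 0.049), and the call was lost without library 5 (1.58), 6 (2.23), 7 (1.55) or 8 (2.48). Irgm2 kept its call under every setting tried, at 562 and 394 against 95.3 and 125 CPM (2.12, SE 0.29).

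The cell cycle and the machinery of growth were higher in Gr-1lo cells. All 24 DNA replication genes (median -2.90) and all 22 mitosis genes (median -2.25) were higher in Gr-1lo cells. Rrm2, a ribonucleotide reductase subunit, was at 17.5 and 20.7 CPM in Gr-1hi and 169.8 and 153 CPM in Gr-1lo cells (-3.08, SE 0.25), and Pcna, the polymerase clamp, at 26.1 and 30.1 against 162 and 151 CPM (-2.47, SE 0.10). Mki67, the proliferation antigen, was at 152 and 188 against 764 and 763 CPM (-2.17, SE 0.19, adjusted p = 1.4e-05), and Top2a, which untangles DNA, at 76.6 and 100.3 against 489 and 522 CPM (-2.51, SE 0.24). The Gr-1hi cells thus held some of these transcripts, with library 6 above library 5 at the 4 genes named. Of 23 ribosome biogenesis genes, 18 were higher in Gr-1lo and 1 in Gr-1hi cells (median -1.69). Npm1, nucleophosmin, was at 50.7 and 44.4 against 185 and 189.5 CPM (-1.98, SE 0.11) and Fbl, fibrillarin, at 9.31 and 7.11 against 48.6 and 49.9 CPM (-2.58, SE 0.16). Polr1a, the largest subunit of RNA polymerase I, was the 1 that was higher in Gr-1hi cells, at 72.5 and 96.2 against 28.1 and 26.3 CPM (1.63, SE 0.16).

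Energy metabolism parted the subsets by pathway. Of 25 mitochondrial complex genes 15, and of 15 tricarboxylic acid cycle genes 6, were higher in Gr-1lo cells, with none higher in Gr-1hi cells (medians -1.13 and -0.91). Cycs, cytochrome c, was at 22.0 and 27.0 CPM in Gr-1hi and 105 and 107 CPM in Gr-1lo cells (-2.11, SE 0.12), and Atp5a1, a subunit of ATP synthase, at 146 and 152 against 475 and 465 CPM (-1.66, SE 0.10). Fh1, fumarate hydratase, was at 7.93 and 6.86 against 39.0 and 42.7 CPM (-2.47, SE 0.12). The replicates of these genes lay close and the subsets did not overlap. Of 22 glycolysis genes, 8 were higher in Gr-1hi and 1 in Gr-1lo cells (median 0.78). They were 4 transporters, both regulators of the Pfkfb family and 2 enzymes. Slc2a3, the high-affinity glucose transporter GLUT3, was at 1107 and 1296 against 31.8 and 32.6 CPM (5.22, SE 0.15, adjusted p = 1.7e-07), the lactate exporter Slc16a3 at 481 and 393 against 66.8 and 63.6 CPM (2.74, SE 0.11) and the regulator Pfkfb4 at 564 and 518 against 81.1 and 80.3 CPM (2.75, SE 0.10). Gapdh (2337 and 2268 against 1529.6 and 1441 CPM, 0.63) and Eno1 (951 and 887 against 766 and 709 CPM, 0.32) were not called. Glycogen phosphorylase, Pygl, was at 1944 and 2142 against 304 and 280.2 CPM (2.81, SE 0.10), the leading member of the glycogen list, of which 4 of 10 (2 without library 6) were higher in Gr-1hi and 1 in Gr-1lo cells. Of 21 cholesterol synthesis genes, 3 were higher in Gr-1hi and 2 in Gr-1lo cells (4 without library 5). Among 15 BCL2 family genes, 4 were higher in Gr-1hi and 3 in Gr-1lo cells. Over all genes tested the shares were 22.3% and 27.4%, so these counts are not read as a trait of the family. The survival factor Mcl1 was at 2294 and 2117 against 610.3 and 635 CPM (1.82, SE 0.11) and the effector Bax at 14.1 and 12.2 against 43.1 and 45.6 CPM (-1.75, SE 0.12).

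**Figure D4:**
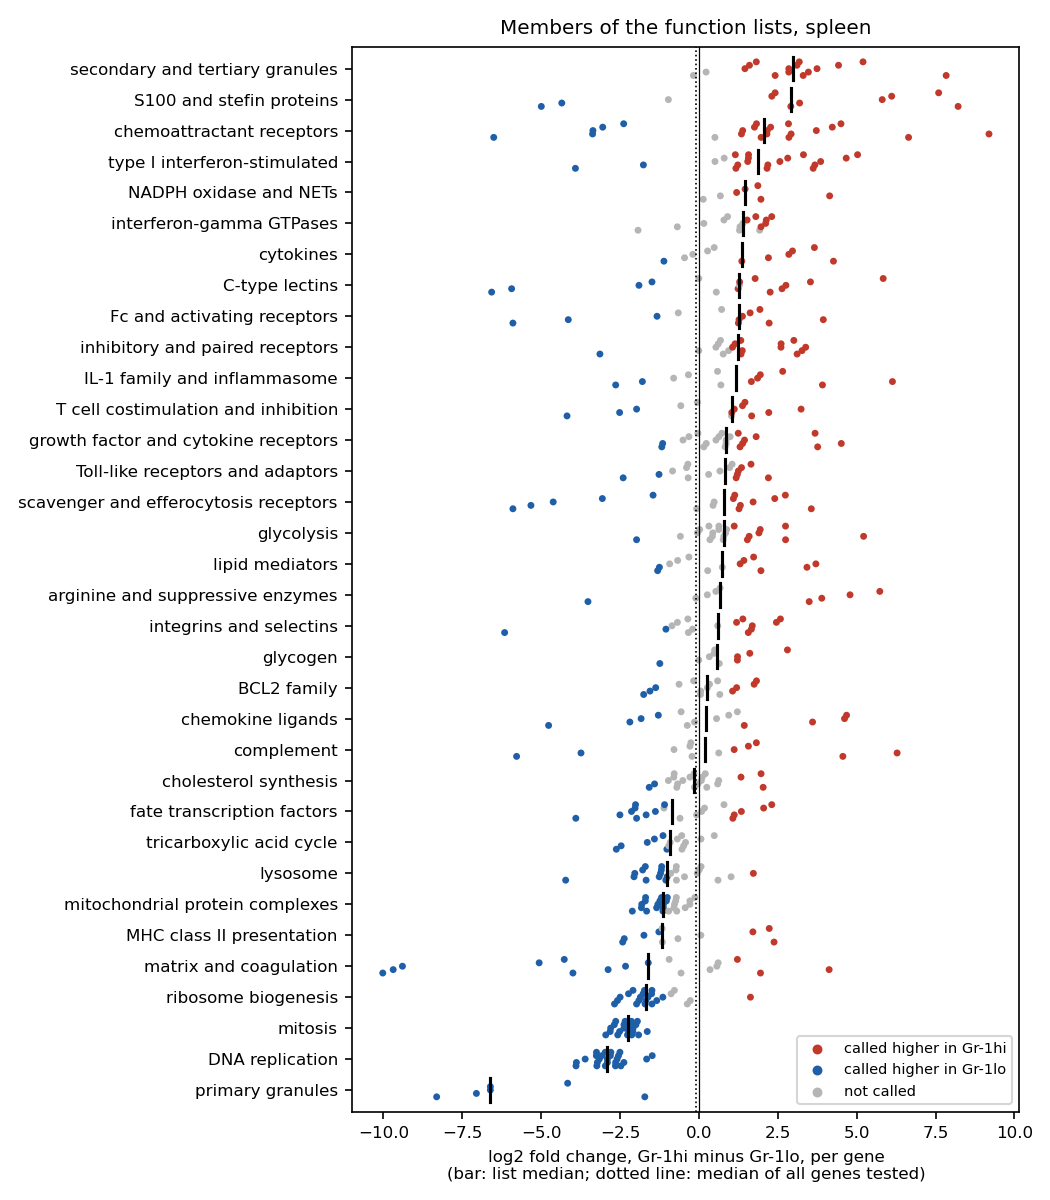
Log2 fold change (Gr-1hi minus Gr-1lo) of each tested gene of the 34 function lists, with red points for genes called higher in Gr-1hi cells, blue points for genes called higher in Gr-1lo cells and grey points for genes not called. The black bars are list medians, from 2.98 for the secondary and tertiary granules to -6.61 for the primary granules, and the dotted line is the median of all genes tested, -0.09.

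Some abundant transcripts were not called. Lyz2, lysozyme, was at 4489 and 8374 CPM in Gr-1hi and 8056 and 8950 CPM in Gr-1lo cells (-0.40, 95% interval -0.97 to 0.16). Its value rested on library 6: the difference was -0.94 without it (adjusted p = 0.00017), -0.86 with libraries 5 and 7 alone (adjusted p = 0.0015) and -0.12 with libraries 6 and 8 alone. By the exact test on quantile-normalized TPM Lyz2 was called, at -2.31 (adjusted p = 8.9e-11). Laptm5, a lysosomal membrane protein of leukocytes, was at 1773 and 1643 against 1536 and 1726 CPM (0.07, 95% interval -0.18 to 0.31), and Cfl1, cofilin, at 1030.4 and 1151 against 1006 and 1041 CPM (0.09, 95% interval -0.13 to 0.31). Ftl1, ferritin light chain, differed by 0.19 (95% interval -0.03 to 0.41). None of these 4 intervals reached a 2-fold difference, and that of Lyz2 came close to it.

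The same contrast in marrow, with its own 4 libraries, gave 1158 genes higher in Gr-1hi and 1788 higher in Gr-1lo cells by the strict rule. Of the 278 spleen genes of at least 50 CPM, 264 met the strict rule in the same direction in marrow. The spleen difference minus the marrow difference was itself called (adjusted p at most 0.05 and at least 2-fold) at 9.74% of all genes, 7.74% in the direction of Gr-1hi and 2.00% toward Gr-1lo cells, and at 76 of those 278 genes. The 4 marrow libraries held at most 5 Xist counts, unlike spleen libraries 5 and 7, so this test also compares libraries that differ in sex-linked transcripts. The part of that in the values below was not tested. On the list of secondary and tertiary granules 10 of 16 genes were called, all with the smaller difference in spleen. Ltf was at 19965 and 22640 CPM in marrow Gr-1hi and at 295 and 365 CPM in marrow Gr-1lo cells, so that the spleen Gr-1hi level was lower and the spleen Gr-1lo level higher than its marrow counterpart, and the difference shrank by 2.71 on the log2 scale (interaction -2.71, SE 0.34, adjusted p = 0.0038). Ngp changed likewise, from 26964 and 31326 against 1129.9 and 1052 CPM in marrow (interaction -2.32, SE 0.35, adjusted p = 0.0062). Primary-granule genes did not meet this test, as for Elane (683 and 634 CPM in marrow Gr-1lo cells, interaction -0.78, SE 0.51, adjusted p = 0.34).

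Ribosome biogenesis genes differed between the tissues the other way. On this list 17 of 23 genes were called, all with a positive interaction, which means a smaller deficit of Gr-1hi cells in spleen. Myc, the driver of ribosome synthesis, was at 5.94 and 7.08 CPM in spleen Gr-1hi and 8.80 and 6.98 CPM in spleen Gr-1lo cells (-0.27, SE 0.17). In marrow Myc was at 1.38 and 1.11 against 17.5 and 18.1 CPM, and the interaction was 3.55 (SE 0.26, adjusted p = 0.0015). Irf8, the factor that directs progenitors to monocytes, was at 51.0 and 46.6 against 192 and 237 CPM in spleen (-2.14, SE 0.30; -1.93 and not called with libraries 5 and 7 alone) and at 5.38 and 10.5 against 228 and 337 CPM in marrow, with an interaction of 3.02 (adjusted p = 0.0063), and was named after its values were seen. Both lists were chosen for this comparison after the data were seen. On the plasma cell list 7 of 12 genes were called for this interaction, all positive like the ribosome biogenesis genes (median difference 0.33 in spleen and -1.89 in marrow). These markers summed to 1493 and 1473 CPM in spleen Gr-1hi, 1307 and 1525 CPM in spleen Gr-1lo, 168 and 157 CPM in marrow Gr-1hi and 386 and 431 CPM in marrow Gr-1lo cells. Markers of B cells, of which 1 of 16 was called, summed to 198 and 174 CPM in marrow Gr-1hi and 224 and 281 CPM in marrow Gr-1lo cells, and the part of other cell types in these tissue differences was not tested.

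**Figure D5:**
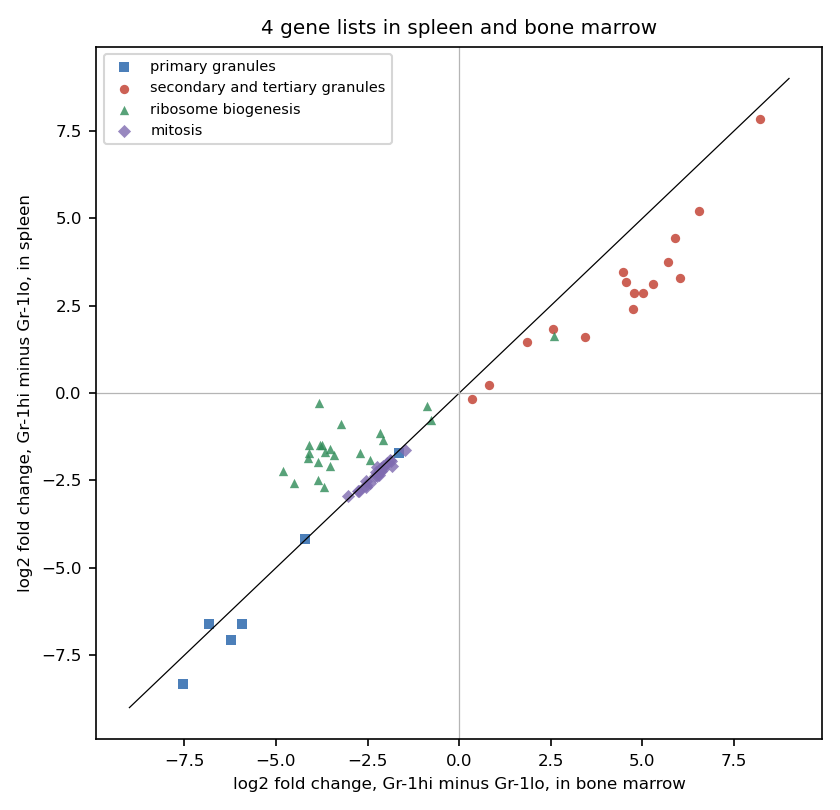
Log2 fold change (Gr-1hi minus Gr-1lo) of the genes of 4 lists in bone marrow (x axis) and in spleen (y axis), 1 point a gene, with a line where both are equal. Secondary- and tertiary-granule genes lie below the line, most ribosome biogenesis genes above it, and mitosis genes along it at about -2.25 in spleen.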

How the data were processed

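RNA was sequenced from sorted CD11b+Gr-1hi and CD11b+Gr-1lo cells of spleen and bone marrow. Per the study's methods, the authors trimmed paired reads from a stranded mRNA kit, aligned them with STAR to GRCm38 (mm10) and counted reads per gene with featureCounts. They deposited raw counts per gene, with no normalization, in 1 table of 54188 genes, labelled as stranded, and the strand setting used in counting is not given in the sources used here.

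Groups were taken from the labels. All 8 libraries were fitted together in R 4.3.3 with edgeR 4.0.16 (limma 3.58.1): TMM scaling, the default filter on low counts, 1 term a group, quasi-likelihood F-tests with robust estimation and 4 residual degrees of freedom, and Benjamini-Hochberg adjustment over the 17650 genes tested. P-values measure the spread between these libraries. Exon lengths came from GENCODE M21 and promoters from RefSeq GRCm38.p6. The test was checked on simulated counts with known answers. Figures were drawn with matplotlib 3.10.9 in Python 3.11.15. The alternatives were RLE and upper-quartile scaling, no filter, DESeq2 1.42.0, the spleen libraries alone, edgeR's exact test on quantile-normalized TPM, other CPM floors, and leaving out libraries.

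Genes were named by this rule: in each direction the 12 of largest difference and the 8 of highest level among strict calls (the former of at least 50 CPM), up to 5 called members of highest level on each of the 46 gene lists (663 of 668 listed genes are in the table) and members not called, the label checks and genes of the study's questions, and the 8 most abundant genes with a log2 difference below 0.5. Genes outside the rule are said to be so. Some genes under the rule are not reported here. The comparison, its lists and rules were chosen with earlier results of these data known.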

Additional observations from a re-analysis of the deposited data

Results flagged for a closer look

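Some differences between Gr-1hi and Gr-1lo cells were larger or smaller in spleen than in marrow, by the test of the difference between tissues (edgeR quasi-likelihood, adjusted over all 17650 genes). Among 29 genes, the 24 of largest difference and 5 others of the gate and lineage, 1 passed, Ly6g, with -1.59 (SE 0.42, adjusted p = 0.046). Ly6g encodes an antigen of the Gr-1 antibody and belongs to the gate, so it is no finding. Its adjusted p also lay close to the limit of 0.05. On the longer marker lists 6 of 10 granulocyte stage markers, Ly6g included, passed with a smaller difference in spleen, and 2 of 12 monocyte stage markers with a positive value. On the list of secondary and tertiary granules 10 of 16 genes passed, and leaving out each library in turn gave 7 to 12. Ltf differed by -2.71 (SE 0.34, adjusted p = 0.0038), Ngp by -2.32 (SE 0.35, adjusted p = 0.0062) and Itgb2l, an integrin subunit, by -2.18 (SE 0.33, adjusted p = 0.0063). On the ribosome biogenesis list 17 of 23 passed, and leaving out each library gave 14 to 18. Myc differed by 3.55 (SE 0.26, adjusted p = 0.0015), Rrp9, of ribosomal RNA processing, by 2.59 (SE 0.40, adjusted p = 0.0061) and Nop16, a nucleolar protein, by 2.57 (SE 0.36, adjusted p = 0.0047). The 2 lists and their leading genes were picked after the data were seen. Spleen libraries 5 and 7, unlike the marrow libraries, held many Xist counts, and the part of this in the tissue differences was not tested. Groups of 2 libraries are too small for a test of single outlying libraries.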

How the results depend on the processing

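Each count over all genes stayed within 1.5 times its value where scaling, filter, tool or 1 library changed, but the balance did not hold: at 2-fold, the 3928 Gr-1hi and 4833 Gr-1lo calls became 4409 and 4385 with relative log expression scaling and 4218 and 4198 with DESeq2. Without the filter the 518 strict Gr-1lo calls became 680. Leaving out each library gave 690 to 812 strict calls toward Gr-1hi and 453 to 599 toward Gr-1lo cells, 3588 to 4027 and 4589 to 5014 calls at 2-fold, and 172 to 199 and 85 to 103 strict calls of at least 50 CPM. The exact test on quantile-normalized TPM gave fewer calls, 434 and 200 strict and 2216 and 2386 at 2-fold, and the cause was not tested. With a floor of 10 CPM the strict calls were 293 and 211, and with 100 CPM those toward Gr-1lo cells were 56, by construction of the floor. The 1 of 29 genes whose difference differed between tissues became 0 to 5 when a library was left out. Nr4a1, not called at 0.08, ran from -1.04 (without replicate 6) to 0.68 (without replicate 5) and was -1.03 with spleen libraries 5 and 7 alone, as library 6 held 334 CPM against 101 in library 5. Counts on function lists moved by more than 1.5 times mostly under the exact test on TPM, for the C-type lectins (8 to 4), Toll-like receptors (6 to 3), integrins (7 to 4), costimulators (7 to 4) and scavenger receptors (8 to 2) higher in Gr-1hi cells and the ribosome biogenesis genes (18 to 11) higher in Gr-1lo cells. Over all listed and named genes and alternatives, 9946 values kept their direction and side of the threshold, 334 lost the call, 194 gained one and 2 reversed. No paired analysis was possible because the library numbers are unique and pair no samples. The libraries held 36809570 counts or more, each group had 2 of them, and genes near 0 CPM stayed untested.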
